A study of Mus musculus with 12 samples.

Results

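The leukocyte genes measured in cultures of type II alveolar epithelial (AT2) cells were 33 of the 55450 genes counted. They were chosen by symbol as markers of cells that the isolation of AT2 cells is meant to remove: 4 pan-leukocyte genes, 19 macrophage genes, 6 lymphocyte genes and 4 neutrophil genes. No measured value entered their choice by rule, although results of these libraries were known when the list was drawn up. All 33 were found in the table by gene ID and all 33 passed the filter on low counts.

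RNA-seq was performed on AT2 cells of mice on a C57BL/6 background aged 6 to 8 weeks. All groups carried the floxed AhR gene, so that the control cells were AhR f/f and not unmodified. The other cells, called Cre-positive here, were Sftpc-Cre;AhR f/f, in which Cre is driven by the promoter of the AT2 gene Sftpc. Cells of each genotype received PBS or cockroach extract (CRE) at 50 µg/ml for 24 h, with 3 libraries in each of the 4 groups. Before culture, lung cells had been depleted with antibodies against CD45, CD16/32, Ter119 and Sca-1 bound to magnetic beads, and then left on dishes coated with mouse IgG, to which macrophages adhere.

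CD45 is a phosphatase of the surface of nearly all leukocytes and CD16/32 are receptors for the Fc part of IgG, so both steps act on proteins that several of the genes below encode. The resident macrophage of the air space carries Siglec-F and CD11c and takes up surfactant, whereas macrophages of the lung tissue and recruited ones make the complement protein C1q. Marker genes of such cells in an epithelial culture are commonly read as a measure of cells carried over, and fewer cells of a type cannot be told apart from less RNA per cell in such bulk libraries.

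Total counts lay between 68878065 and 80935797 per library. Where a gene had 0 counts, counting error alone allows 3, which is 0.0365 to 0.0446 CPM (counts scaled to the library total). The labels do not say whether libraries came from separate animals, so p-values measure the spread between these libraries. The defining markers of the labelled cell type were present, and the 9 AT2 genes, led by Sftpc, Sftpa1 and Sftpb, summed to between 4413 and 9039 CPM. Markers of club and ciliated cells were present too: these 4 genes, led by the club cell gene Scgb1a1, summed to between 4020 and 8198 CPM, and on the per-length scale Scgb1a1 averaged 10233 FPKM against 4399.8 FPKM for Sftpc. Counts of Ahr, the floxed gene, were 3219, 2949 and 3503 in control cells with PBS and 3908, 3303 and 3372 in the cells labelled as Cre-positive. With CRE they were 4516, 3767 and 3731 against 4052, 2761 and 3774. Gene counts sum all exons, so a deleted exon is not seen by itself, and the genotypes below are those of the labels.

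The libraries numbered 1 stood apart in all 4 groups. The 33 genes together summed to 1040, 935, 849 and 787 CPM in these (control PBS, control CRE, Cre-positive PBS and Cre-positive CRE), and to between 156 and 311 CPM in the other 8 libraries. For 24 of the 33 genes the library numbered 1 was the highest of its group in all 4 groups, against 7.67% of the 20612 genes tested. Over the 33 genes the libraries numbered 1 were a median 4.48-fold above the others, against 0.994-fold over all genes tested. These libraries were singled out after their values were seen, and what sets them apart was not tested.

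**Figure D1:**
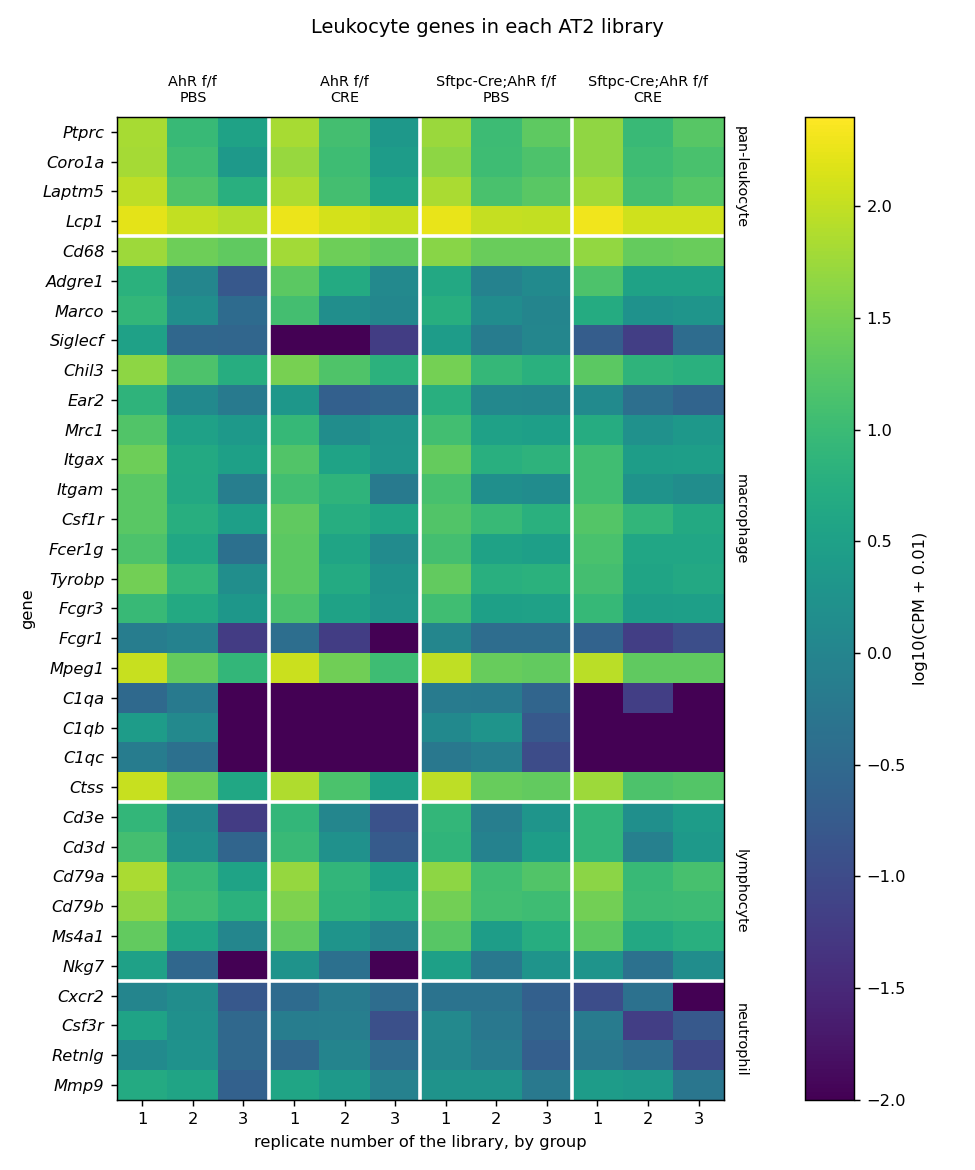
Level of each of the 33 leukocyte genes (rows, by group of genes) in each of the 12 libraries (columns, by group and replicate number), as log10(CPM + 0.01). The first column of each group is the brightest for most pan-leukocyte, macrophage and lymphocyte genes, and the C1q genes are at 0 in nearly all columns with CRE.

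The 4 pan-leukocyte genes were found in every library. Ptprc, which encodes CD45 itself and so the target of the depletion, had 4988, 611 and 265 counts in control cells with PBS and 5421, 905 and 163 with CRE. In Cre-positive cells it had 4272, 847 and 1528 counts with PBS and 3734, 710 and 1355 with CRE. The libraries numbered 3 were thus the lowest in control cells and the intermediate ones in Cre-positive cells, under both treatments. The group means of Ptprc lay close together, at 26.3 CPM ± 34.9, 27.3 ± 35.2, 28.4 ± 22.9 and 25.0 ± 19.9 (SD, n = 3 each) in the order above, with SDs near the means. Coro1a, an actin-binding coronin of leukocytes, ranged from 184 to 4754 counts, and Laptm5, a lysosomal membrane protein of blood cells, from 274 to 6939.

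Lcp1, the actin-bundling protein L-plastin, was the most even of the pan-leukocyte genes over the libraries. It had 12527, 6789 and 6067 counts in control cells with PBS, 14811, 9733 and 8020 with CRE, 13899, 8365 and 7236 in Cre-positive cells with PBS and 16048, 8885 and 9373 with CRE. Its highest library was 2.61-fold above its lowest, against 30.8-fold for Ptprc, so that Lcp1 had 251 to 4920 counts for each 100 counts of Ptprc. Cd68, a lysosomal glycoprotein of macrophages, was similarly even, with 1557 to 4895 counts and a 2.92-fold range.

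On the per-length scale of FPKM, the mean over the 12 libraries was highest for Ctss, the lysosomal protease cathepsin S, at 25.4, and for Cd68 at 23.9. Cd79a, part of the B cell receptor, followed at 14.8, Tyrobp, an adaptor of activating receptors, at 13.6, Lcp1 at 12.6 and Cd79b, the partner of Cd79a, at 11.2. These 6 genes were the ones at 10 FPKM or more, and 11 genes were below 1 FPKM. Ptprc stood at 1.33 FPKM. Neighbours in this order overlapped in their ranges over the libraries. For 7 of the 33 genes at least 1 library had 0 counts.

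The 19 macrophage genes summed to 479, 134 and 53.9 CPM in control cells with PBS and 426, 120 and 57.8 CPM with CRE. In Cre-positive cells they summed to 389, 121 and 111 CPM with PBS and 313, 96.1 and 98.7 CPM with CRE. Of the 19 genes, 14 were highest in the library numbered 1 in all 4 groups. Among them, Mpeg1, the pore-forming perforin-2, ranged from 637 to 9131 counts, Chil3, a chitinase-like protein of alveolar macrophages, from 427 to 3319, and Csf1r, the receptor of the growth factor that macrophages depend on, from 235 to 1720. The adaptors Tyrobp and Fcer1g had 117 to 2216 and 32 to 1545 counts, the scavenger receptor Marco had 26 to 979, and Itgam, which encodes CD11b, had 45 to 1383.

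The sum of the 6 lymphocyte genes differed 16.7-fold between its lowest and its highest library, against 4.33-fold for the pan-leukocyte, 8.89-fold for the macrophage and 13.9-fold for the neutrophil genes. They summed to 161, 27.3 and 11.4 CPM in control cells with PBS and 127, 20.0 and 9.61 CPM with CRE, and to 111, 28.1 and 39.3 CPM and 110, 26.5 and 36.0 CPM in Cre-positive cells. All 6 were highest in the library numbered 1 in all 4 groups. Of these, the B cell genes Cd79a and Cd79b had the highest mean level per length, at 14.8 and 11.2 FPKM, with 231 to 5208 and 395 to 3443 counts, while Ms4a1, which encodes CD20, stood at 1.31 FPKM and had 68 to 1714 counts. Cd3e and Cd3d, of the complex that signals for the T cell receptor, stood at 0.772 and 2.00 FPKM, with 4 to 661 and 13 to 903 counts. Nkg7, a granule protein of NK cells and cytotoxic T cells, had 250, 19 and 0 counts in control cells with PBS, 148, 31 and 0 with CRE, 246, 46 and 138 in Cre-positive cells with PBS and 149, 31 and 109 with CRE.

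The ratio of the B cell gene Cd79a to Ptprc varied less than either gene. There were 63.8 to 142 counts of Cd79a for each 100 counts of Ptprc over the 12 libraries, while Ptprc itself differed 30.8-fold between them. On that scale Cd79b had 52.0 to 242 counts, Ms4a1 15.5 to 47.5 and Cd3d 7.55 to 18.1. Cd3e had 1.51 to 16.7 and Nkg7 0 to 9.03. This evenness is not general, since Lcp1, also a pan-leukocyte gene, differed only 2.61-fold.

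The 4 neutrophil genes were highest in the library numbered 1 of each group in their sum, but not gene by gene. They summed to 10.6, 8.46 and 0.966 CPM in control cells with PBS, 5.23, 4.64 and 1.69 with CRE, 4.503, 3.56 and 1.26 in Cre-positive cells with PBS and 4.04, 3.10 and 0.760 with CRE, with the library numbered 1 highest and the one numbered 3 lowest in each group. Cxcr2, a receptor of neutrophil chemokines, had 75, 96 and 12 counts in control cells with PBS, 27, 49 and 27 with CRE, 36, 38 and 16 in Cre-positive cells with PBS and 8, 31 and 0 with CRE. The library numbered 1 was the highest of its group in 0 of 4 groups for Cxcr2, in 2 for Retnlg and in 3 for Csf3r and Mmp9, and the mean of the libraries numbered 1 was 1.02-fold, 1.35-fold, 3.20-fold and 2.16-fold that of the others. Csf3r, the G-CSF receptor, had 4 to 263 counts, Retnlg, a resistin-like protein of neutrophils, 6 to 118, and Mmp9, gelatinase B, 17 to 362. In every library these sums were the lowest of the 4 groups of genes. The libraries numbered 3 of Cre-positive cells were the lowest here, but intermediate for Ptprc and the lymphocyte sum. The neutrophil sum in the library numbered 1 was 1.13-fold to 1.30-fold that in the one numbered 2. For the lymphocyte sum this was 3.96-fold to 6.37-fold.

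**Figure D2:**
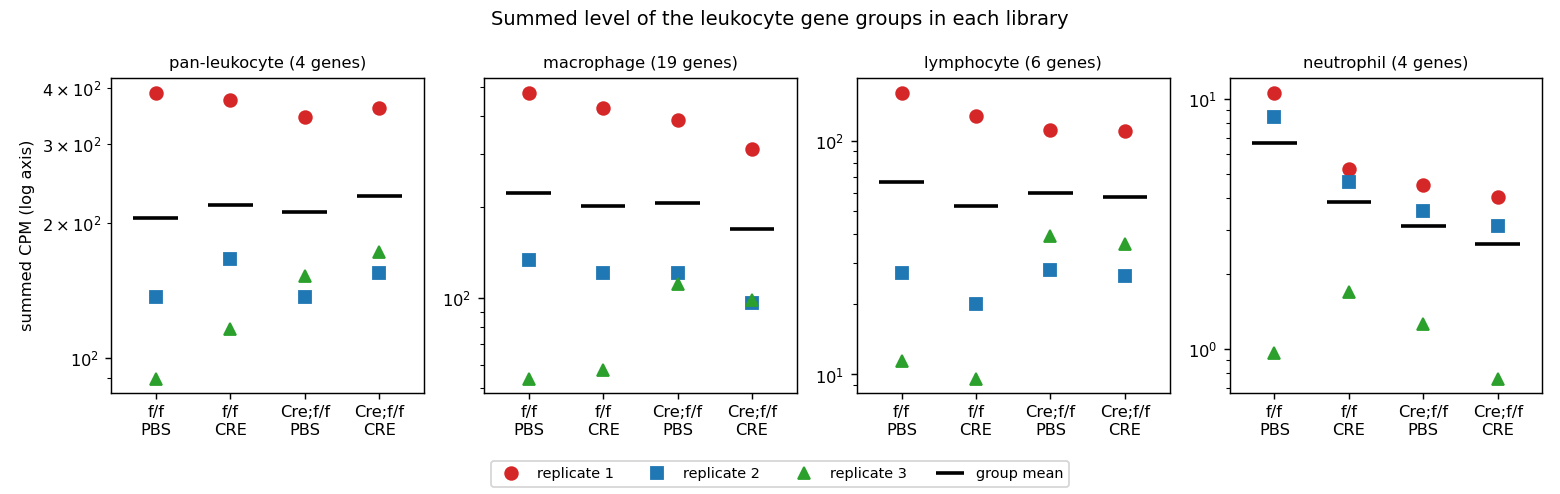
Summed CPM (log axis, a separate scale in each panel) of the pan-leukocyte, macrophage, lymphocyte and neutrophil genes in each library, with replicate numbers as symbols and group means as bars; f/f is AhR f/f and Cre;f/f is Sftpc-Cre;AhR f/f. The libraries numbered 1 lie above the others for the first 3 groups of genes, while for the neutrophil genes the libraries numbered 2 lie close to them.

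The order of libraries was shared by most other pan-leukocyte, macrophage, lymphocyte and dendritic cell markers, by few other neutrophil, mast cell, basophil and eosinophil markers and by 5 of 10 endothelial markers, and by no marker of AT2, AT1 or general epithelial cells. All 19 further pan-leukocyte genes (Cytip, Cd53 and Itgb2 the most abundant) were highest in the library numbered 1 in all 4 groups, as were 22 of 27 further macrophage genes tested, 17 of 20 lymphocyte genes and 6 of 8 dendritic cell genes. Of 13 further neutrophil genes it was 3 (median 0.989-fold in the libraries numbered 1 against the others), of 7 mast cell, basophil and eosinophil genes 1 (median 0.869-fold), of 10 endothelial genes 5 (median 1.35-fold), and of 9 fibroblast, 4 club and ciliated cell and 2 erythroid genes none. None of 9 AT2, 5 AT1 and 4 general epithelial genes did so, and the AT2 genes were a median 0.809-fold as high in the libraries numbered 1 as in the others. The 4 targets of the depletion antibodies, Ptprc, Fcgr3, Fcgr2b and Ly6a, summed to 101 to 117 CPM in the libraries numbered 1 and to 37.2 to 64.5 CPM in the others. Ly6a, which encodes Sca-1, did not share this, at 0.928-fold in the libraries numbered 1 and highest there in 2 of 4 groups, against 3.54-fold to 5.78-fold for the other genes. The part that other cell types had in the values of the 33 genes was not tested.

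The spread within groups was large. The SD of log2 CPM between libraries of a group had a median of 1.53 over the 33 genes, against 0.30 over the 20612 genes tested, and 25 of the 33 were above the 90th percentile of all genes. It was 2.49 for Nkg7 and 2.46 for Cd3e, 1.84 for Ptprc, and no more than 0.66 for Cd68 and 0.47 for Lcp1.

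Whether CRE changed the leukocyte genes was first tested between groups, by the quasi-likelihood test of edgeR, adjusted after Benjamini-Hochberg over all genes tested. In control cells 0 of the 33 genes passed an adjusted p of 0.05, where 0.233% of all genes did, and in Cre-positive cells 0 passed, where 0.262% of all genes did. DESeq2 called 1 of the 33 (Siglecf) in control cells, where it called 1.98% of all genes, and 0 in Cre-positive cells, where it called 1.23%. At an unadjusted p of 0.05 the same 4 genes, Siglecf, C1qa, C1qb and C1qc, were lower with CRE in each genotype, where 4.44% of all genes were lower in control cells and 2.71% in Cre-positive cells. These 4 genes passed the filter on low counts only through libraries with PBS. A fall with CRE was thus the only change they could show, and the shares of all genes are not a like measure for them. The median log2 fold change over the 33 genes was -0.37 in control cells and -0.19 in Cre-positive cells, and the medians over all genes were within 0.003 of 0. Both medians of the 33 genes rested on single libraries: without the PBS library numbered 1 they were 0.89 and 0.55, and without the CRE library numbered 1 they were -1.95 and -1.13.

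Siglecf, the sialic acid-binding lectin that marks alveolar macrophages and eosinophils, had 251, 19 and 21 counts in control cells with PBS and 0, 0 and 4 with CRE. In Cre-positive cells it had 210, 57 and 75 counts with PBS and 15, 4 and 27 with CRE. Within each genotype, every library with PBS was above every library with CRE. On the log2 scale the change was -6.08 in control cells (SE 1.50, adjusted p = 0.190 by edgeR) and -2.86 in Cre-positive cells (SE 1.20, adjusted p = 0.727). DESeq2 gave -6.21 in control cells (adjusted p = 0.000637), and the value there rests on 4 counts with CRE in all. For each 100 counts of Ptprc there were 3.11 to 7.92 counts of Siglecf with PBS and 0 to 2.45 with CRE, so that the treatments did not overlap on that scale either.

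The 3 subunits of C1q, the first component of the classical complement pathway, were found almost only with PBS. C1qb had 203, 79 and 0 counts in control cells and 96, 152 and 12 in Cre-positive cells with PBS, and 0 counts in all 6 libraries with CRE. C1qc had 53, 28 and 0 counts and 44, 64 and 7 counts with PBS, and 0 with CRE. C1qa had 23, 42 and 0 counts and 52, 53 and 19 with PBS, and with CRE it had 4 counts in 1 library of Cre-positive cells and 0 in the others. Taking 3 counts per library as the floor, the mean level with CRE was at least 32.9-fold lower for C1qb, at least 9.53-fold lower for C1qc and at least 7.90-fold lower for C1qa in control cells. In Cre-positive cells it was at least 27.3-fold lower for C1qb and at least 12.1-fold lower for C1qc. These bounds rested on single libraries with PBS: in control cells, C1qb fell to at least 14.9-fold and C1qc to at least 5.30-fold without the library numbered 1, and C1qa to at least 3.91-fold without the one numbered 2, and they were 49.4-fold, 14.3-fold and 11.9-fold without the one numbered 3. In Cre-positive cells the bound of C1qb was at least 17.5-fold without the PBS library numbered 2, and that of C1qc at least 8.27-fold. For C1qa in Cre-positive cells the log2 change was -4.75 (SE 1.71, adjusted p = 0.666 by edgeR). The adjusted p-values of edgeR lay between 0.336 and 0.382 for the 3 genes in control cells and between 0.532 and 0.666 in Cre-positive cells. The libraries numbered 3 of control cells had none of the 3 genes under either treatment. All 3 genes passed the filter only through libraries with PBS, so neither the bounds nor the p-values could have shown a rise.

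Libraries of the groups compared did not overlap for 1 of the 33 genes in control cells, Siglecf, where 7.66% of all genes were lower without overlap. In Cre-positive cells they did not overlap for 5 genes, Siglecf, C1qa, C1qb, C1qc and Fcgr1, the high-affinity IgG receptor CD64, where 5.35% of all genes were lower without overlap. All of these were lower with CRE. These 5 genes passed the filter only through libraries with PBS, so that only this direction was open to them. With 3 libraries against 3, an exact permutation test of 1 gene cannot give a two-sided p below 0.1.

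Sequence upstream of a few of these genes is shown because PU.1, the ETS factor that drives macrophage and B cell genes, is known to bind a GAGGAA core. These are the 250 bases before the start site, from RefSeq on GRCm38.p6, 5′ to 3′ on the strand of the gene, with GAGGAA or its reverse complement TTCCTC in capitals; they are of the depletion target (the first of 2 starts listed), of the alveolar macrophage marker and of the C1q genes that were at 0 with CRE.
Ptprc (chr1:138175306-138175555, minus strand): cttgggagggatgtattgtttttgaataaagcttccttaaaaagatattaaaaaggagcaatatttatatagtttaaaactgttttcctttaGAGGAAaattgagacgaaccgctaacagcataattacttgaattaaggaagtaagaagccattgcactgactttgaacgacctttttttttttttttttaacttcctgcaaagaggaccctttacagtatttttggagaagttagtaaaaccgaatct
Siglecf (chr7:43351091-43351340, plus strand): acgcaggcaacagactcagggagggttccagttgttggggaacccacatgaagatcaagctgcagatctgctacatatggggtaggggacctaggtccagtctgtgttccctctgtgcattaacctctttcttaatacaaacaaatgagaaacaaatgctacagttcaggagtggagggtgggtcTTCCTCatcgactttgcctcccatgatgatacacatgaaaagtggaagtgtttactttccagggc
C1qb (chr4:136886201-136886450, minus strand): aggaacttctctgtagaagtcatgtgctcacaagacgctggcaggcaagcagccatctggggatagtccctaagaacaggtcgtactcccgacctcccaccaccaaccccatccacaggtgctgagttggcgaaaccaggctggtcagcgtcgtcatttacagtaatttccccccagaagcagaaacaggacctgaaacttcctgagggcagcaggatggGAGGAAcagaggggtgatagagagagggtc
C1qc (chr4:136892915-136893164, minus strand): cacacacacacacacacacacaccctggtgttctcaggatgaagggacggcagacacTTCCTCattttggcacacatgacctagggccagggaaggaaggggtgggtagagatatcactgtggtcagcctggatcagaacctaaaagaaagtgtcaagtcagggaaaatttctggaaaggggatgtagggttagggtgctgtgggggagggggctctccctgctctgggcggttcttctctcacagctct
Each of the 4 windows held the 6 letters 1 time. Of the 26 leukocyte genes with a promoter in the RefSeq table, 17 (65.4%) had GAGGAA on either strand in the 300 bases from 250 before to 50 after a start, against 31.3% of the 27025 genes with a promoter and 28.3% of the 32851 promoters of that length. The longer GAGGAAGT, which contains GAGGAA, was in the promoters of 2 of the 26 genes, C1qc and Ctss, against 3.69% of genes. A match of letters is a description of the sequence and not a bound site.

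Libraries of the same number were alike within a genotype, as the check of the pairing shows, so that a fit with a term for each pair of PBS and CRE libraries was made in addition. It was added after the data were seen, and the genes it called are named here after their values were seen. A single term for each replicate number over both genotypes called 0 of the 33 genes with CRE in either, where it called 0.665% and 0.543% of all genes. The fit with a term for each pair called 6 of the 33 genes in control cells, 2 higher and 4 lower with CRE, where it called 3.63% of all genes (1.87% higher and 1.76% lower). In Cre-positive cells it called 3 of the 33, 1 higher and 2 lower, where it called 2.13% of all genes (1.33% higher and 0.796% lower). Such shares were not particular to leukocyte genes. In control cells the same fit called 3 of 9 AT2, 2 of 5 AT1 and 2 of 4 general epithelial genes. It also called 2 of 10 endothelial, 1 of 9 fibroblast and 1 of 4 club and ciliated cell genes there. In Cre-positive cells it called 3 AT2 and 2 AT1 genes and 0 of these other lists.

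Adgre1, which encodes the macrophage surface protein F4/80, rose with CRE. It had 481, 71 and 12 counts in control cells with PBS and 1589, 369 and 86 with CRE, and 351, 73 and 95 in Cre-positive cells with PBS and 1189, 253 and 260 with CRE. Each library with CRE was above its partner with PBS, although the groups overlapped. With pairing the log2 change of Adgre1 reached 2.14 (SE 0.24, adjusted p = 0.00815 by edgeR) in control cells and 1.71 (SE 0.23, adjusted p = 0.0166) in Cre-positive cells. For each 100 counts of Ptprc there were 4.53 to 11.6 counts of Adgre1 with PBS and 19.2 to 52.8 with CRE, without overlap. Fcgr1 did not overlap on that scale either, at 1.10 to 9.66 with PBS and 0 to 0.590 with CRE. The other genes called with pairing, Ear2, Itgax, Ctss, Laptm5 and Lcp1, did overlap there. Itgax, for example, had 33.4 to 91.3 with PBS and 16.3 to 92.6 with CRE. How often genes in general separate on that scale was not tested.

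Ear2, a ribonuclease of the eosinophil-associated family that alveolar macrophages also make, fell. Its counts were 540, 81 and 49 in control cells with PBS and 171, 16 and 19 with CRE, and 468, 91 and 78 in Cre-positive cells with PBS and 98, 29 and 19 with CRE. With pairing the log2 change was -1.84 (SE 0.28, adjusted p = 0.0221 by edgeR) and -1.95 (SE 0.28, adjusted p = 0.0209). Ear2 has near-identical paralogs, among which reads may have been split.

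Itgax, which encodes CD11c, fell as well. It had 1999, 311 and 242 counts in control cells with PBS and 1276, 270 and 151 with CRE, and 1828, 491 and 511 in Cre-positive cells with PBS and 886, 206 and 221 with CRE. With pairing, Itgax gave a log2 change of -0.58 (SE 0.11, adjusted p = 0.0439 by edgeR) and -1.13 (SE 0.11, adjusted p = 0.00574). All 6 libraries with CRE were below their partners.

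In control cells the paired fit also called Ctss, Laptm5 and Lcp1. Ctss had 8006, 1807 and 318 counts with PBS and 5986, 1044 and 235 with CRE, with a paired value of -0.62 (SE 0.12, adjusted p = 0.0399 by edgeR), and Laptm5 had 6939, 1021 and 465 against 5764, 916 and 274, with -0.45 (SE 0.09, adjusted p = 0.0410). Lcp1 was higher by 0.32 (SE 0.07, adjusted p = 0.0477). In Cre-positive cells the paired values of these genes were -0.59 (adjusted p = 0.0551), -0.13 (adjusted p = 0.567) and 0.26 (adjusted p = 0.113). Exons of Lcp1, Coro1a, Csf1r and Cd3e overlap those of genes on the other strand and exons of Itgam those of a gene on its own strand, and the strand setting of the counting is not given in the sources used here.

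The calls of the paired fit were thin. Leaving out 1 of the 6 pairs at a time, it called 0 to 2 of the 33 genes in control cells and 0 to 4 in Cre-positive cells; it called 0 in control cells without their pair numbered 2 and 0 in Cre-positive cells without their pair numbered 3. Without the 4 libraries numbered 1 it called 0 in each, at values of 2.51 and 1.67 for Adgre1, -1.89 and -1.78 for Ear2 and -0.48 and -1.18 for Itgax. With 1 pair left out at a time, Adgre1 was called in 5 of 6 fits in control cells and in 3 of 6 in Cre-positive cells, with log2 fold changes of 1.91 to 2.49 and 1.59 to 1.85. In the same 6 fits Ear2 was called in 3 in control cells and in 2 in Cre-positive cells, and Itgax in 0 and in 5. In control cells Ctss and Laptm5 were called in 0 of the 6 and Lcp1 in 1, and none of these values changed sign.

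**Figure D3:**
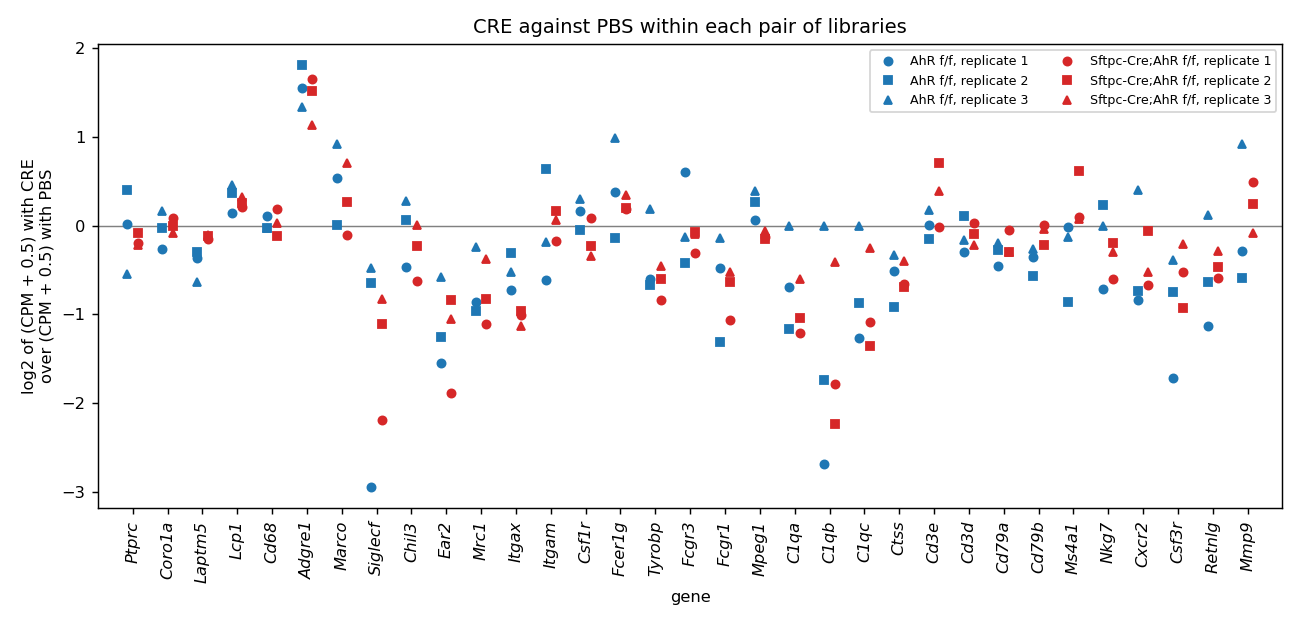
Difference between CRE and PBS within each of the 6 pairs of libraries (points, 3 of each genotype), as log2 of (CPM + 0.5) with CRE over (CPM + 0.5) with PBS, for each of the 33 genes. Adgre1 and Lcp1 lie above 0 in all 6 pairs, and 9 genes, among them Siglecf, Ear2 and Itgax, lie below 0 in all 6.

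Counted by pair, 2 of the 33 genes were higher with CRE in all 6 pairs, Adgre1 and Lcp1, where 7.57% of all genes were. Lower in all 6 pairs were 9 of the 33, namely Siglecf, Ear2, Itgax, Mrc1, Fcgr1, Ctss, Laptm5, Cd79a and Csf3r, where 6.79% of all genes were. Of these, Siglecf and Fcgr1 passed the filter only through libraries with PBS. Mrc1, the mannose receptor CD206, had 1217, 219 and 189 counts with PBS and 701, 106 and 148 with CRE in control cells, and 938, 274 and 224 against 414, 122 and 170 in Cre-positive cells. The log2 ratios of Adgre1 ran from 1.13 to 1.81 over the pairs, those of Ear2 from -1.88 to -0.58 and those of Itgax from -1.13 to -0.31. Others were small, from -0.64 to -0.11 for Laptm5, from -0.45 to -0.05 for Cd79a and from 0.14 to 0.46 for Lcp1. These ratios add 0.5 CPM to both values and understate changes of low genes.

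Ptprc and Fcgr3, targets of the depletion antibodies, were not called by either fit. Fcgr3, which encodes CD16 and has close paralogs among the Fc receptors, had 689, 316 and 167 counts in control cells with PBS, 1142, 253 and 144 with CRE, 883, 258 and 243 in Cre-positive cells with PBS and 707, 216 and 232 with CRE. With CRE, the log2 value of Fcgr3 was 0.29 (SE 0.83, adjusted p = 0.984 by edgeR) and -0.24 (SE 0.83, adjusted p = 1), and that of Ptprc 0.05 (SE 1.24, adjusted p = 1) and -0.19 (SE 1.24, adjusted p = 1) in control and Cre-positive cells. With pairing, Ptprc gave -0.04 (SE 0.17, adjusted p = 0.939) and -0.17 (SE 0.17, adjusted p = 0.748). Ptprc was higher with CRE in 2 of the 6 pairs and lower in 4.

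**Figure D4:**
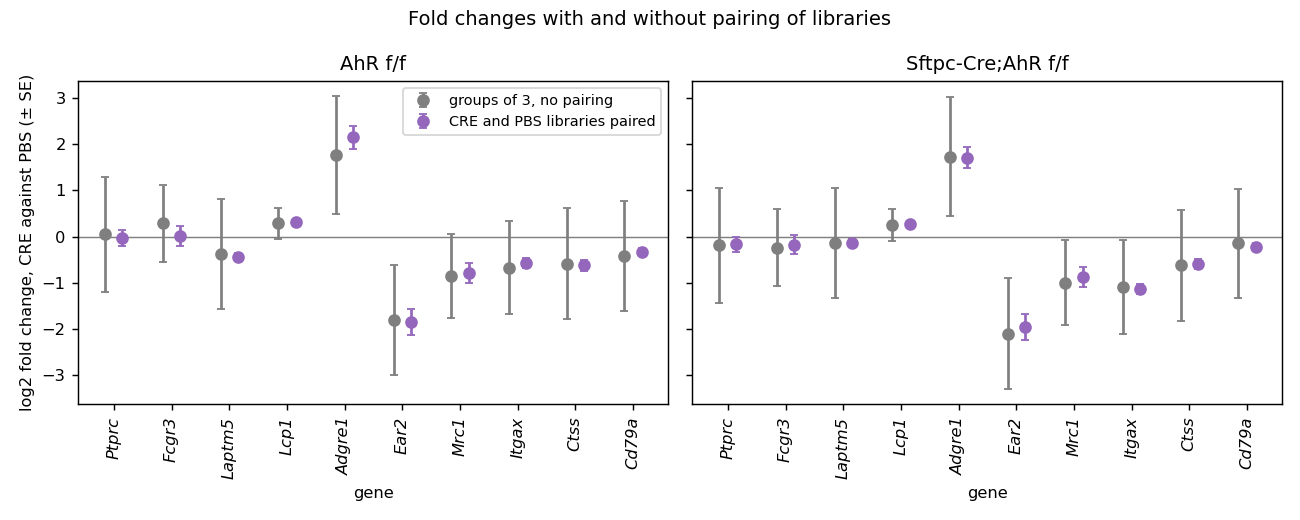
Log2 fold change of CRE against PBS (points, bars ± SE, n = 3 libraries per group) in control (AhR f/f, left) and Cre-positive cells (Sftpc-Cre;AhR f/f, right) for 10 of the 33 genes, fitted between groups (grey) and with PBS and CRE libraries paired (purple). The fitted values change little between the fits, while the SE is much smaller with pairing, as for Adgre1 at 2.14 ± 0.24 and Ear2 at -1.84 ± 0.28 in control cells.

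Among the other leukocyte lists, the test between groups called Plet1 in control cells and Plet1 and Cd14 in Cre-positive cells, of 27 further macrophage genes tested, and no gene of the other pan-leukocyte, lymphocyte, neutrophil, dendritic, or mast cell, basophil and eosinophil lists. Plet1 had 9998, 9560 and 10271 counts in control cells with PBS and 26693, 33213 and 29983 with CRE, which is 1.53 on the log2 scale (SE 0.12, adjusted p = 0.000941 by edgeR), and 1.39 (SE 0.12, adjusted p = 0.00119) in Cre-positive cells. Cd14, the co-receptor for bacterial lipopolysaccharide, rose by 1.42 (SE 0.21, adjusted p = 0.0207) in Cre-positive cells and gave 1.17 (SE 0.21, adjusted p = 0.0645) in control cells, where the paired fit gave 1.18 (adjusted p = 0.00376). Neither had the order of libraries of the 33 genes, with levels 0.838-fold and 0.826-fold as high in the libraries numbered 1 as in the others.

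The paired fit called 5 of the 27 further macrophage genes, 4 of 13 neutrophil, 1 of 19 pan-leukocyte and 0 of 20 lymphocyte genes in control cells, where it called 3.63% of all genes, and 4, 1, 1 and 0 in Cre-positive cells, where it called 2.13%. The genes are again named after their values were seen. Cybb, the catalytic subunit of the phagocyte NADPH oxidase, rose by 1.14 (SE 0.13, adjusted p = 0.00794 by edgeR) in control cells and 1.19 (SE 0.13, adjusted p = 0.00678) in Cre-positive cells, from 3767, 416 and 193 to 7383, 1280 and 397 counts in the former. Clec4d, a lectin receptor of myeloid cells, rose by 1.24 (adjusted p = 0.0186) and 1.20 (adjusted p = 0.0213), and Hcls1, a cortactin-like protein of blood cells, by 0.66 (adjusted p = 0.0354) and 0.63 (adjusted p = 0.0481). The chemokine Ccl6 fell by 0.93 (adjusted p = 0.0495) and by 1.13 (adjusted p = 0.0339). In control cells it also called Clec4e, another such lectin, at 2.65 (adjusted p = 0.0392, against 2.50 and 0.0551 in Cre-positive cells), and Mmp8, at 0.62 (adjusted p = 0.0497), as higher. Padi4, at -0.48 (adjusted p = 0.0462), and Lyz2, at -0.15 (adjusted p = 0.0239), were called there as lower. Like Plet1 and Cd14, these genes lacked the order of libraries, at 0.897-fold for Padi4 and 0.801-fold for Lyz2 in the libraries numbered 1. Cybb, Clec4d, Hcls1, Ccl6, Clec4e and Mmp8 were 3.67-fold to 6.99-fold as high there. Lyz2 averaged 4200 CPM, beside 5080 CPM for the AT2 gene Sftpc, and which cells its counts came from was not tested.

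Between genotypes the leukocyte genes were compared under each treatment. In Cre-positive against control cells with PBS, edgeR called 0 of the 33 genes, where it called 0.15% of all genes, and 0 of the 33 had an unadjusted p below 0.05, where 8.37% of all genes had. With CRE it again called 0, where it called 0.17% of all genes, and 1 gene was higher at an unadjusted p below 0.05, where 2.94% of all genes were. DESeq2 called 0 of the 33 under each treatment, where it called 1.18% and 0.844% of all genes, and the term for replicate number also called 0, where it called 0.344% and 0.267%. In CPM, libraries did not overlap between genotypes for 0 of the 33 genes with PBS and for 1 with CRE, where they did not for 14% and 11% of all genes. The median log2 fold change over the 33 genes was -0.15 with PBS and -0.14 with CRE, and its direction turned with the fit. With a term for replicate number the medians were 0.38 and 0.12, and leaving out 1 library at a time they ran from -1.02 to 1.26 with PBS and from -0.96 to 1.20 with CRE, the extremes without a library numbered 1.

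The 1 gene was Siglecf, with 15, 4 and 27 counts in Cre-positive cells against 0, 0 and 4 in control cells, a difference of 3.39 on the log2 scale (SE 1.46, adjusted p = 0.831 by edgeR). The closest libraries of the genotypes tied at 4 counts each, and only the scaling to CPM set the groups apart. With PBS the value for Siglecf was 0.16 (SE 1.10, adjusted p = 0.998), that of Ptprc was 0.11 (SE 1.24, adjusted p = 0.998) and that of Fcgr3 was 0.14 (SE 0.83, adjusted p = 0.998). With CRE, Ptprc gave -0.13 (SE 1.24, adjusted p = 1) and Fcgr3 -0.38 (SE 0.83, adjusted p = 1).

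The genotypes' responses to CRE were compared as an interaction. It was called for 0 of the 33 genes and for 0% of all genes by edgeR, 0 of the 33 had an unadjusted p below 0.05, where 3.7% of all genes had, and DESeq2 called 0 of the 33, where it called 0.112% of all genes. For Siglecf the difference of responses was 3.23 on the log2 scale (SE 1.82, adjusted p = 1). With pairing, 0 of the 33 passed and 4 had an unadjusted p below 0.05, Itgax, Laptm5, Mpeg1 and Cd79b, where 9.09% of all genes had. Their log2 differences of responses were -0.55 for Itgax, 0.32 for Laptm5, -0.36 for Mpeg1 and 0.33 for Cd79b, each with an adjusted p between 0.494 and 0.534.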

How the data were processed

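RNA-seq was done by the authors on stranded mRNA libraries of cultured AT2 cells, 12 libraries in 4 groups. Per the submitters' processing notes, reads were aligned with STAR 2.7.2b to GRCm38, and gene counts came from Salmon; Partek is also named, and the study's methods give RefSeq as annotation, although all 55450 gene IDs of the table were found in GENCODE M21. The counts deposited by the authors are raw and whole, and how whole numbers were reached is not given in the sources used here. The FPKM values deposited by the authors scale each count by gene length and depth, and served only to compare levels between genes. The 12 single tables hold the same values as the combined one. No library was left out.

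The 33 genes, the other gene lists and the tests were chosen with earlier results of these data known. CPM and fits used TMM factors (0.969 to 1.03) and the filterByExpr filter by group at a minimum count of 10, which kept 20612 genes, in edgeR 4.0.16 under R 4.3.3. All 5 contrasts came from 1 quasi-likelihood fit of 4 group means with Benjamini-Hochberg adjustment at 0.05. The SD of log2 CPM used a prior count of 2. Log2 fold changes are printed for the genes with an unadjusted p below 0.05 and for Ptprc, Fcgr3 and Siglecf; others are named after their values were seen. The fit was tried on simulated data with the same spread for all genes, which does not show how it behaves on genes as uneven as these. Other lists covered leukocytes, depletion targets, red cells, endothelium, fibroblasts, club and ciliated, AT2, AT1 and general epithelial cells. Alternatives were DESeq2 1.42.0, limma-trend (limma 3.58.1) with adjusted p and by the study's rule (a log2 fold change beyond 0.5 in either direction at an unadjusted p of 0.05), other scalings and filters, only the libraries compared, a replicate block and leaving out libraries. Promoters came from RefSeq on GRCm38.p6; 7 of the 33 genes have no promoter in that table.

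Labels number the libraries 1 to 3 in each group. Over 14545 genes of at least 1 CPM, deviations from group means correlated between CRE and PBS libraries of the same number at 0.724, 0.411 and 0.648 in control cells and at 0.595, 0.543 and 0.328 in Cre-positive cells, so that the numbers pair the treatments within a genotype. This pairing comes from the data, not from the labels, and the paired fit has 4 residual degrees of freedom.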

Additional observations from a re-analysis of the deposited data

How the results depend on the processing

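No change of scaling or filter moved a count of called genes among the 33 from 0. DESeq2 called 1 in control cells with CRE against PBS. The study's rule called 4 in each CRE comparison and 1 between genotypes with CRE, but 848, 696 and 705 of all genes. Pairing within genotype (a replicate block for each genotype and number) called 6 in control and 3 in Cre-positive cells, and 748 and 439 of all genes against 48 and 54 unpaired. The additive replicate block called 0 of the 33 in all 5 contrasts and 137, 112, 71 and 55 of all genes in the first 4. Between genotypes the same-number correlations were 0.417, 0.0414 and 0.106 with PBS and 0.409, -0.0274 and 0.0866 with CRE. The libraries numbered 1 were thus alike between genotypes, while the numbers 2 and 3 do not pair libraries there. DESeq2 called 409, 254, 243 and 174 of all genes, and 23 for the interaction, and the study's rule 846 between genotypes with PBS and 475 for the interaction. With only the libraries compared, edgeR called 13 of all genes with CRE in Cre-positive cells and 15 between genotypes with PBS. Without the 4 libraries numbered 1, it called 19 of all genes between genotypes with CRE and 4 for the interaction, and with the additive block as well 29, 24, 12, 15 and 2 in the 5 contrasts; with pairing within genotype it called 139 and 115 for CRE and 4 for the interaction.

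Values of single genes between groups turned on the libraries numbered 1. For CRE in control cells, leaving out 1 library in the unpaired fit gave log2 fold changes of -1.88 to 2.13 for Ptprc and -1.01 to 0.93 for Fcgr3. Those of Itgax ran from -2.02 to 0.89, of Ctss from -2.42 to 0.98 and of Laptm5 from -2.25 to 1.47. The median over the 33 genes ran from -1.95 to 0.89. With 1 pair left out of the paired fit, Ptprc gave -0.28 to 0.21 and Fcgr3 -0.32 to 0.26. In the same fits Itgax gave -0.69 to -0.48, Ctss -0.73 to -0.45 and Laptm5 -0.52 to -0.34. In Cre-positive cells the unpaired ranges were -1.05 to 0.69 for Ptprc, -0.97 to 0.63 for Fcgr3, -1.54 to 0.35 for Ctss, -1.18 to 0.92 for Laptm5 and -0.0382 to 0.58 for Lcp1. Between genotypes they were -0.76 to 2.19 for Ptprc, -0.73 to 0.78 for Fcgr3 and -0.60 to 2.39 for Siglecf with PBS, and -0.99 to 1.80 for Ptprc and -1.12 to 0.91 for Fcgr3 with CRE. For the interaction they were -2.31 to 1.69 for Ptprc, -1.26 to 0.77 for Fcgr3 and -1.50 to 1.47 for the median. The genes called numbered 0 with 1 library left out, and with 1 pair left out 0 to 2 of the 33 in control and 0 to 4 in Cre-positive cells. The extremes of the unpaired ranges came from leaving out a library numbered 1.

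The signs of Ptprc and Fcgr3 also turned under other fits, to values of up to 1.16 for Ptprc. Ptprc with CRE in control cells gave -0.0663 by limma-trend and so by the study's rule, -0.0406 with pairing and -0.0852 with pairing but without the libraries numbered 1. Fcgr3 there gave -0.36 without those libraries, -0.34 with the additive replicate block as well and -0.31 with pairing. Between genotypes with CRE, Ptprc gave 0.73 by limma-trend and the study's rule, 0.52 with the additive replicate block, 0.94 without the libraries numbered 1 and 1.16 with both, and Fcgr3 0.17 without them and 0.23 with both. Fcgr3 gave -0.0847 between genotypes with PBS without them. Its interaction was 0.25 without them, 0.23 with the additive replicate block as well and 0.20 with pairing. The causes were not tested. Genes at a few counts, such as Siglecf and C1qa to C1qc, are limited by depth.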
